A study of Mus musculus with 8 samples.

Results

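The genes described here encode 10 intracellular proteins that hold back signals from the T cell receptor (TCR) or from cytokine receptors. They were Cish, Socs1, Socs3, Ptpn6, Ptpn22, Ubash3a, Cblb, Dgka, Dgkz and Rasa2, chosen by name for this role, and all 10 were found among the 22609 gene symbols of the files and among the 10073 genes with enough reads to be tested. Male C57BL/6J mice, aged 6 weeks, had all received an antibody against CD137 (αCD137) on day 0, 3 and 6, and their livers were collected on day 8. CD137 is a costimulatory receptor of T cells. From the livers, live αβ T cells of the CD8 lineage (CD45+, TCRβ+ and CD8α+, but negative for CD4, NK1.1 and MHCII) with the KLRG1+CD127- surface profile of effector cells were sorted into a CD11c+ subset and a CD11c- subset, with 4 RNA-seq libraries each. Every comparison below sets CD11c+ against CD11c- cells of treated mice. The labels number the libraries 1 to 4 within a subset without saying whether they came from separate mice, so the p-values measure the spread between these libraries, which may be technical.

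A T cell receptor signal runs from tyrosine kinases at the membrane to the lipid messenger diacylglycerol and the GTPase Ras, and a cytokine signal runs from a receptor through JAK kinases to STAT transcription factors. Each step has its own brake: phosphatases remove activating phosphates, ubiquitin ligases mark signalling proteins for removal, diacylglycerol kinases use up the lipid messenger, Ras GTPase activating proteins switch Ras off, and SOCS proteins, which STAT factors induce, bind receptors and JAKs and feed back on them. In CD8 T cells these proteins are known for setting how strongly a cell answers antigen and cytokines, and loss of several of them in mice gives more active effector cells.

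Libraries held 5090345 to 7093163 reads in genes and detected 10482 to 12581 genes. Levels are given as CPM, the reads of a gene scaled to library size and TMM factors. The gene of the sorted protein, Itgax, was at 198 to 357 CPM in CD11c+ libraries and at 4.76 to 17.97 CPM in CD11c- libraries. Of the other genes of the sort, Klrg1 was at 533 ± 61.4 CPM in CD11c+ and 454 ± 62.3 CPM in CD11c- cells (here and below, mean ± SD of n = 4 libraries each), Il7r, which encodes CD127, at 8.27 ± 6.83 CPM in CD11c+ and 3.83 ± 2.38 CPM in CD11c- cells, and Cd8a at 1173 ± 70.6 CPM in CD11c+ and 1121 ± 86.0 CPM in CD11c- cells. The marker list of Cd3e, Cd3d, Cd8a, Cd8b1 and Ptprc together gave 6739 to 7927 CPM in CD11c+ and 6752 to 7339 CPM in CD11c- libraries. Its largest part was Ptprc, at 2538 ± 279 CPM in CD11c+ and 2401 ± 229 CPM in CD11c- cells. Ptprc encodes CD45, which is not specific to T cells. The lowest value of the remaining genes in any library was 866 CPM (Cd3e), so the label of CD8 T cells was borne out in both subsets. Per library, the 10 brake genes had from 160 reads (Rasa2) to 3561 reads (Ptpn22). Counting error alone is 7.91% of the value at 160 reads and 7.86% at the lowest Socs3 count of 162 reads. It covers read sampling only.

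Of the 10 brake genes, 0 passed edgeR's quasi-likelihood test at an adjusted p of 0.05, against 0.0496% of all tested genes (0.0298% higher and 0.0199% lower in CD11c+ cells). DESeq2 and limma voom called 0 of the 10 as well. At an unadjusted p under 0.05 edgeR had 2 of the 10, against 4.7% of tested genes: Cish on the higher side, where 2.43% of tested genes lay, and Socs3 on the lower side, where 2.26% lay. The 4 libraries of CD11c+ cells lay wholly above those of CD11c- cells for Cish, a separation found in 1.6% of tested genes, and wholly below them for Socs3, found in 1.85%. Separation in either direction was found in 3.44% of tested genes, and the other 8 brake genes overlapped between subsets. In bulk RNA, fewer cells with a transcript and less of it per cell cannot be told apart. The median log2 fold change of the 10 was 0.07, beside 0.01 over all tested genes, with 6 positive and 4 negative values.

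**Figure D1:**
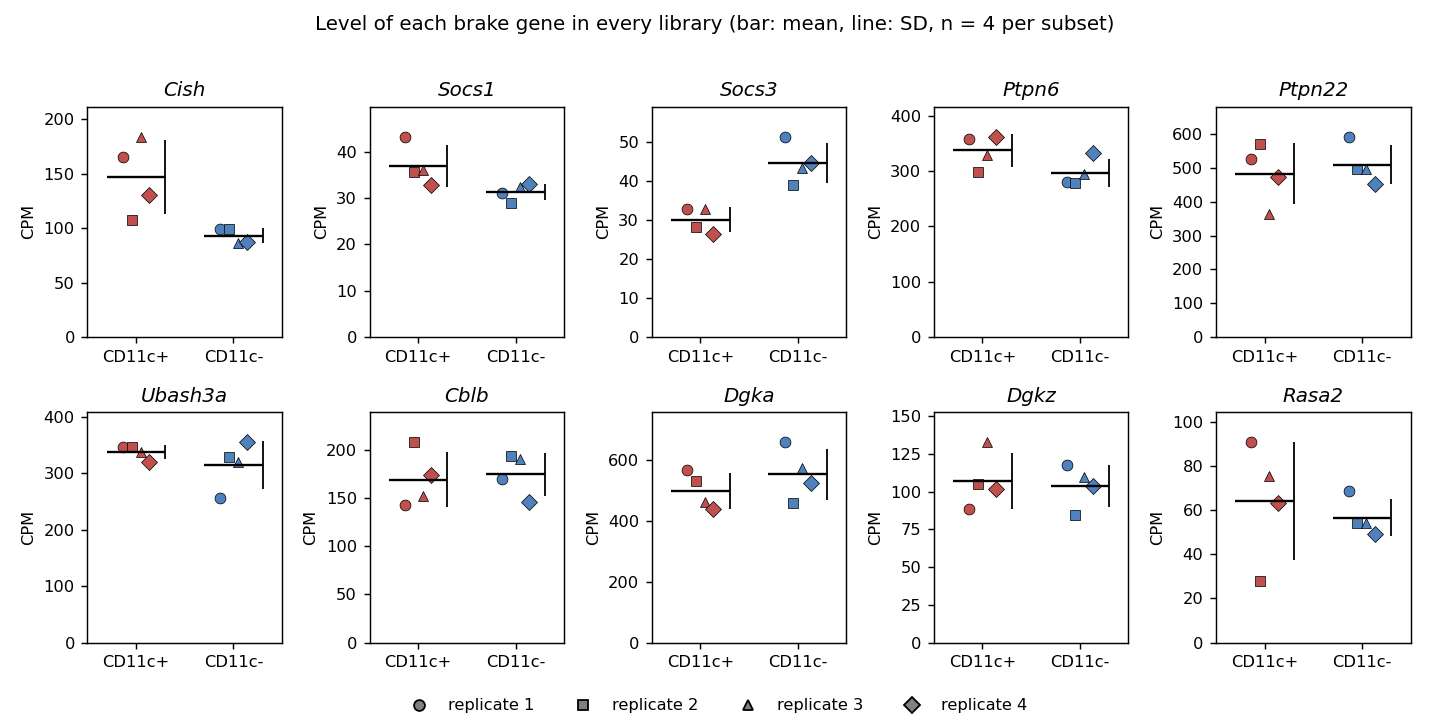
CPM of the 10 brake genes in CD11c+ (red, left) and CD11c- (blue, right) libraries, with 1 symbol per library, the mean as a bar and the SD as a vertical line (n = 4 each). Cish lies between 107.7 and 184 CPM in CD11c+ cells, above the 86.7 to 99.4 CPM of CD11c- cells, Socs3 lies between 26.5 and 32.8 CPM in CD11c+ cells, below the 39.1 to 51.4 CPM of CD11c- cells, and the other panels overlap.

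The SOCS family held both genes whose subsets separated, and they lay in opposite directions. Cish encodes CIS, a SOCS protein induced by STAT5 after IL-2 and related cytokines, which in mouse CD8 T cells also targets the TCR signalling enzyme PLCγ1. Cish was at 165, 107.7, 184 and 131 CPM in CD11c+ replicates 1 to 4, against 99.3, 99.4, 86.7 and 87.6 CPM in CD11c- replicates 1 to 4. Its lowest CD11c+ library, replicate 2, exceeded the highest CD11c- library by less than 10 CPM, while replicates 1 and 3 stood far above. The means were 147 ± 34.2 CPM in CD11c+ and 93.3 ± 7.08 CPM in CD11c- cells (SD, n = 4 each), a ratio of 1.58. edgeR's quasi-likelihood test put the log2 fold change at 0.66 (SE 0.17, 95% interval 0.28 to 1.03), with an unadjusted p of 0.00246 from the fit over all genes and an adjusted p of 0.668. The adjusted p was 0.0754 by DESeq2 and 0.277 by limma voom, so Cish missed the threshold with each tool.

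Socs3 encodes an inhibitor that binds the shared IL-6 receptor chain gp130 and the JAKs bound to it. Socs3 was at 32.8, 28.3, 32.8 and 26.5 CPM in CD11c+ replicates 1 to 4, against 51.4, 39.1, 43.5 and 44.6 CPM in CD11c- replicates 1 to 4. Every CD11c+ library lay below every CD11c- library, with CD11c- replicate 2 the nearest to them. The means were 30.1 ± 3.21 CPM in CD11c+ and 44.6 ± 5.11 CPM in CD11c- cells, a ratio of 0.674. The same edgeR test put it at -0.57 on the log2 scale (SE 0.20, 95% interval -1.01 to -0.13), with an unadjusted p of 0.0153 from the fit over all genes and an adjusted p of 0.99. DESeq2 gave an adjusted p of 0.484 and limma voom 0.657.

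Socs1 encodes the SOCS protein that blocks the JAK kinases of the interferon-γ and common γ chain receptors most directly. Socs1 was at 43.2, 35.6, 36.0 and 32.7 CPM in CD11c+ replicates 1 to 4, against 31.0, 28.9, 32.4 and 32.9 CPM in CD11c- replicates 1 to 4. The lowest CD11c+ library, replicate 4, lay just under the highest CD11c- library, so the subsets overlapped. The log2 fold change was 0.24 (SE 0.20, 95% interval -0.21 to 0.68, adjusted p = 0.991 by edgeR), an interval that runs from 0.867-fold to 1.6-fold.

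Of the ratios among the 3 SOCS genes within a library, both that involve Socs3 separated the subsets and that of Cish to Socs1 did not. This describes a pattern chosen after its values were seen. As Cish lay wholly higher and Socs3 wholly lower in CD11c+ libraries, their ratio had to separate and adds no evidence. How often the ratios of other gene pairs separate was not computed. The ratio of Cish to Socs3 reads ran from 3.81 to 5.61 in CD11c+ libraries and from 1.93 to 2.54 in CD11c- libraries. Socs3 had fewer reads than Socs1 in every CD11c+ library, at 0.76 to 0.911 of the Socs1 count, and more in every CD11c- library, at 1.34 to 1.66 times it. The ratio of Cish to Socs1 reads was 3.02 to 5.11 in CD11c+ and 2.66 to 3.45 in CD11c- libraries and overlapped. Summed over the 3 genes, the level was 171.6 to 253 CPM in CD11c+ and 163 to 182 CPM in CD11c- libraries, which overlapped.

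**Figure D2:**
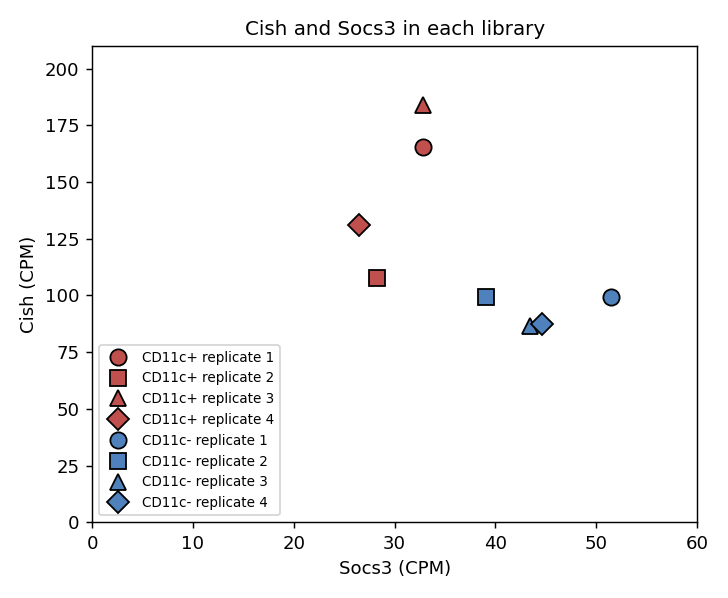
Cish against Socs3, both in CPM, with 1 point per library in CD11c+ (red) and CD11c- (blue) cells and a symbol per replicate number. The CD11c+ points lie to the upper left, at 26.5 to 32.8 CPM of Socs3, and the CD11c- points to the lower right, at 39.1 to 51.4 CPM.

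The promoters of the 3 SOCS genes are shown because STAT factors are known to drive this family through the sequence TTCNNNGAA and the genes lay on different sides here. Each window covers 250 bases before and 50 bases after a transcription start listed for the gene on GRCm38.p6. It is printed 5′ to 3′ on the gene's strand, and capitals mark TTCNNNGAA, which reads the same on both strands. The Cish window is chr9:107296409-107296708 on the + strand, the Socs1 window is chr16:10785487-10785786 on the - strand, and the Socs3 window is chr11:117969317-117969616 on the - strand. The start used for Socs3 lies inside the gene's span, chr11:117966079-117970336, and not at its 5′ end.
Cish: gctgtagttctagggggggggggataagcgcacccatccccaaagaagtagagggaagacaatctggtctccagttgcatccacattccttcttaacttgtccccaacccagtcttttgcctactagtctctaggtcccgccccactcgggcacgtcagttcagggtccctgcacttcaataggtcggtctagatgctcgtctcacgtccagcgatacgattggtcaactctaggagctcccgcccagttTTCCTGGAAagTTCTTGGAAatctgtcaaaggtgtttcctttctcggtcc
Socs1: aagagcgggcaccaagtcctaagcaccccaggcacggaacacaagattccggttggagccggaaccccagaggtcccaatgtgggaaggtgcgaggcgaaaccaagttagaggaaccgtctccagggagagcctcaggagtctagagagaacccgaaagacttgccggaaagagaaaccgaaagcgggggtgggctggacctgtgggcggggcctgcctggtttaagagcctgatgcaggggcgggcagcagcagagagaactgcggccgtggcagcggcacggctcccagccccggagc
Socs3: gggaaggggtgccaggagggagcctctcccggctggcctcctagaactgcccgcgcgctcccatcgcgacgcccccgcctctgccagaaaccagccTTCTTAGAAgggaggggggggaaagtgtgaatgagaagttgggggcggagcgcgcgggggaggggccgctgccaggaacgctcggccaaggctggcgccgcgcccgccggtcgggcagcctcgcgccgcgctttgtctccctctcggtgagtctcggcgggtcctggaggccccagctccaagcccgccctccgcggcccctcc
Counted from the listed transcription start as position 0, Cish held 2 copies, TTCCTGGAA at position 0 and TTCTTGGAA at position 11. Socs3 held 1 copy, TTCTTAGAA at position -154. The Socs1 window held none, which says only that these letters are not in this window. Of 32851 promoter windows of the same length, 8.3% held the motif and 0.457% held it at least 2 times. All 10 brake genes had a window, 15 windows in all, and 3 of the 10 held the motif, beside 9.55% of all genes in the table, with Ptpn22 as the third (TTCTGGGAA, at position -232 of its second window). A match is a description of the sequence and not a site shown to be bound.

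Of the other SOCS genes, Socs4 was at 40.3 ± 6.84 CPM in CD11c+ and 29.9 ± 5.53 CPM in CD11c- cells, and Socs5, Socs6 and Socs7 averaged 12.6, 11.6 and 12.4 CPM over the 8 libraries. None of these 4 passed edgeR's test (adjusted p from 0.991 to 0.992). Socs2 had too few reads to be tested, at 3.92 CPM or less in every library.

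**Figure D3:**
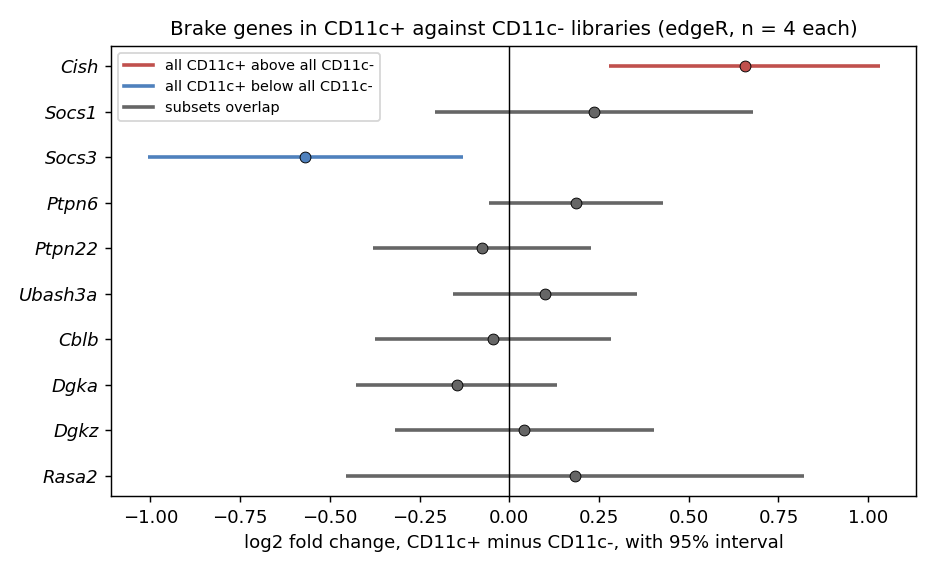
log2 fold change of each brake gene, CD11c+ minus CD11c-, from edgeR's fit over all genes, with its 95% interval as a line (n = 4 libraries each). The interval lies above 0 for Cish (red, 0.28 to 1.03) and below 0 for Socs3 (blue, -1.01 to -0.13), and spans 0 for the other 8 (grey), and no gene passed after adjustment.

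The tyrosine phosphatases and the TCR-proximal suppressor Ubash3a were abundant in both subsets and differed by little. Ptpn6 encodes SHP-1, which inhibitory receptors recruit to take phosphates off TCR-proximal kinases. Ptpn6 was at 358, 299, 330 and 362 CPM in CD11c+ replicates 1 to 4, against 279.6, 278, 295 and 333 CPM in CD11c- replicates 1 to 4. The upper end was shared by both subsets, since CD11c- replicate 4 exceeded CD11c+ replicates 2 and 3. The log2 fold change of Ptpn6 was 0.19 (SE 0.11, 95% interval -0.06 to 0.43, adjusted p = 0.991 by edgeR). The 95% interval in folds ran from 0.961 to 1.35.

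Ptpn22 encodes the phosphatase PEP (LYP in humans), which acts on the kinases Lck and ZAP-70 and partners with the kinase Csk. Ptpn22 was at 527, 571, 364 and 474 CPM in CD11c+ replicates 1 to 4, against 593, 499, 497 and 453 CPM in CD11c- replicates 1 to 4. CD11c+ replicate 3 was the lowest of all 8 libraries and CD11c- replicate 1 the highest, with the rest intermixed. The fold between subsets had a 95% interval of 0.768 to 1.17, and the log2 value of -0.08 (SE 0.14, adjusted p = 0.992 by edgeR) turned to 0.03 without CD11c+ replicate 3.

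Ubash3a encodes STS-2 (also TULA), a weak phosphatase of lymphoid cells that binds ubiquitin and dampens TCR signals. Ubash3a was at 347, 346, 338 and 321 CPM in CD11c+ replicates 1 to 4, against 255.7, 330.0, 321 and 355 CPM in CD11c- replicates 1 to 4. The CD11c+ libraries lay close together, with a coefficient of variation of 3.59%, and inside the range of the CD11c- libraries, whose coefficient of variation was 13.4%. The log2 fold change was 0.10 (SE 0.12, 95% interval -0.16 to 0.35, adjusted p = 0.991 by edgeR).

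Cblb encodes the ubiquitin ligase CBL-B, which makes T cells depend on CD28 costimulation and acts on PI3 kinase, Vav and PLCγ1. Cblb was at 143, 208, 152 and 173 CPM in CD11c+ replicates 1 to 4, against 169.7, 193, 190.0 and 145 CPM in CD11c- replicates 1 to 4. Both subsets covered nearly the same range. The 95% interval of the fold was 0.772 to 1.22, and the log2 value of -0.05 (SE 0.15, adjusted p = 0.996 by edgeR) turned to 0.02 without CD11c+ replicate 1.

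Both tested diacylglycerol kinases of the set turn diacylglycerol into phosphatidic acid and so limit the Ras activator RasGRP1 and protein kinase C θ. Dgka, which encodes the α form, was at 565, 529.6, 463 and 438 CPM in CD11c+ replicates 1 to 4, against 657, 457, 573 and 523 CPM in CD11c- replicates 1 to 4. Its log2 fold change was -0.15 (SE 0.13, 95% interval -0.43 to 0.13, adjusted p = 0.991 by edgeR), with overlapping subsets. Dgkz, which encodes the ζ form, was at 88.4, 105, 133 and 102 CPM in CD11c+ replicates 1 to 4, against 117, 84.6, 109.7 and 104 CPM in CD11c- replicates 1 to 4. For Dgkz the log2 fold change was 0.04 (SE 0.17, 95% interval -0.32 to 0.40, adjusted p = 0.999 by edgeR) and turned to -0.08 without CD11c+ replicate 3. Neither gene separated the subsets, and no difference beyond 0.744-fold or 1.32-fold lay within their intervals.

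Rasa2 encodes a GTPase activating protein that returns Ras to its inactive form and whose loss is known to sharpen T cell responses. Rasa2 was at 90.7, 27.9, 75.4 and 63.1 CPM in CD11c+ replicates 1 to 4, against 68.9, 54.1, 54.2 and 49.3 CPM in CD11c- replicates 1 to 4. It was the least even of the 10 genes: the CD11c+ libraries held both the highest and the lowest of the 8 values and differed 3.25-fold among themselves. The log2 fold change was 0.18 (SE 0.29, 95% interval -0.46 to 0.82, adjusted p = 0.992 by edgeR). It was 0.42 without CD11c+ replicate 2 and -0.03 without CD11c+ replicate 1.

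As a group the 10 genes varied little between libraries of a subset. The SD of log2 CPM within subsets ranged from 0.125 for Ptpn6 and 0.132 for Socs1 to 0.256 for Cish and 0.543 for Rasa2. Its median over the 10 was 0.206, beside 0.374 over all tested genes, many of which had fewer reads. The summed level of the 10 genes was 2107 to 2361 CPM in CD11c+ and 2062 to 2323 CPM in CD11c- libraries.

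Scaled by exon length, with the lengths of RefSeq-linked GENCODE transcripts on GRCm38, the 10 genes formed 2 ranges of level. Dgka averaged 185 CPM per kb over the 8 libraries (SD 25.8), Ptpn22 181 (SD 26.0) and Ptpn6 130.1 (SD 13.8). Each of these had a range that overlapped its neighbour's, and all lay above Ubash3a, at 42.8 CPM per kb (SD 4.10), without overlap. From Ubash3a downward the order was Cish at 32.9, Cblb at 25.8, Dgkz at 23.2, Socs3 at 14.6, Socs1 at 11.7 and Rasa2 at 10.4 CPM per kb, and each of these genes overlapped the next in its range over libraries. Lengths came from another build than the mm9 of the counts, and the isoforms in these cells were not used, so the order holds only as far as these lengths do.

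**Figure D4:**
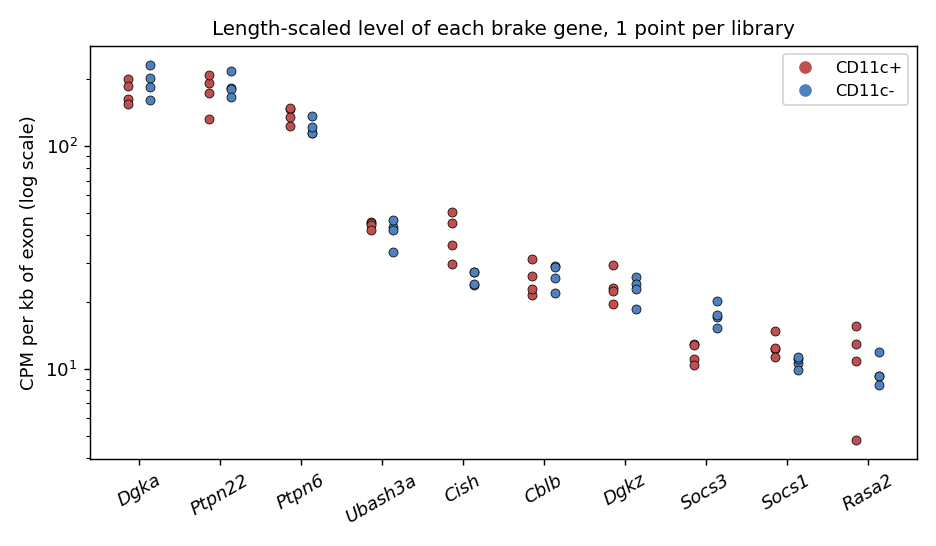
CPM per kb of exon (log scale) of each brake gene in every library, CD11c+ (red) left of CD11c- (blue), ordered by the mean over 8 libraries. Dgka, Ptpn22 and Ptpn6 lie at 114 CPM per kb or more, and the other 7 genes at 50.5 CPM per kb or less.

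The wider machinery of the same pathways showed no gene past the threshold. Where genes of these lists with an unadjusted p under 0.05 or without overlap are named, this was done after their values were seen. Lists around the brakes held 139 genes present in the files besides the 10, of which 127 were tested and 0 passed by edgeR (5 higher and 5 lower at an unadjusted p under 0.05, beside 2.43% and 2.26% of all tested genes), DESeq2 or limma voom. Their median log2 fold change was 0.00, beside 0.01 over all tested genes.

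Among 38 other tested brakes on TCR signalling, 0 passed in either direction and the median log2 fold change was 0.04. The most abundant by CPM were Sh2d2a, an adaptor of Lck, at 1463 ± 167 CPM in CD11c+ and 1523 ± 124 CPM in CD11c- cells, and Sla, an adaptor that lowers TCR levels, at 675 ± 74.5 CPM in CD11c+ and 660.0 ± 51.3 CPM in CD11c- cells. Dok2, Ptpn2 and Itch were the 3 of 38 with an unadjusted p under 0.05. All were on the higher side, where 2.43% of all tested genes lay. Wholly above lay 3 of 38, Dok2, Ptpn2 and Spry1, beside 1.6% of all tested genes. Spry1, a low transcript, was at 3.04 ± 0.622 CPM in CD11c+ and 0.872 ± 0.971 CPM in CD11c- cells (unadjusted p = 0.0867 by edgeR). Dok2, an adaptor that curbs ZAP-70 and Ras signals, was at 344 ± 17.7 CPM in CD11c+ and 269 ± 29.0 CPM in CD11c- cells without overlap (log2 fold change 0.35, adjusted p = 0.923 by edgeR). Ptpn2, a phosphatase of Lck and of JAK and STAT proteins, was at 146 ± 18.2 CPM in CD11c+ and 115 ± 10.4 CPM in CD11c- cells, also without overlap (log2 fold change 0.34, adjusted p = 0.991 by edgeR). Itch, a ubiquitin ligase, was at 98.4 ± 28.0 CPM in CD11c+ and 68.2 ± 14.5 CPM in CD11c- cells (log2 fold change 0.53, adjusted p = 0.991 by edgeR).

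Of 13 other tested cytokine brakes, 0 passed and the median was 0.08. Ptpn2 is counted here too, and the most abundant, Ptpn1, a phosphatase of JAKs, was at 214 ± 17.2 CPM in CD11c+ and 192.5 ± 17.9 CPM in CD11c- cells. Among the enzymes related to the brakes, 6 of 10 diacylglycerol kinases and 7 of 10 Ras GTPase activating proteins were tested, the brake genes of these families included, and 0 passed. After Dgka the kinase of highest CPM was Dgkd, at 178.5 ± 40.5 CPM in CD11c+ and 211 ± 21.5 CPM in CD11c- cells. The Ras GTPase activating proteins of highest CPM were Rasa3, at 461 ± 75.9 CPM in CD11c+ and 556 ± 74.3 CPM in CD11c- cells, and Rasal3, at 405 ± 55.9 CPM in CD11c+ and 393 ± 52.5 CPM in CD11c- cells.

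Transcripts of the proteins on which the brakes act were also measured. Of 21 proximal TCR genes, 0 passed, 15 had negative log2 fold changes and the median was -0.05. Lck, the kinase that starts the TCR signal, was at 2064 ± 120 CPM in CD11c+ and 2182 ± 169.7 CPM in CD11c- cells, and Cd3d, a CD3 chain, at 1162 ± 227.5 CPM in CD11c+ and 1361 ± 129.7 CPM in CD11c- cells.

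Of 23 tested cytokine receptor, JAK and STAT genes, 0 passed and the median was -0.07. Il2rb and Il2rg, the signalling chains of the IL-2 and IL-15 receptors, were the most abundant. Il2rb was at 1356 to 1778 CPM in CD11c+ and 1629 to 2048 CPM in CD11c- libraries (log2 fold change -0.31, adjusted p = 0.945 by edgeR), on the opposite side to Cish. Il2rg was at 1726 ± 54.2 CPM in CD11c+ and 1677 ± 83.4 CPM in CD11c- cells. Il6st, which encodes gp130, was at 27.3 ± 4.57 CPM in CD11c+ and 30.2 ± 5.54 CPM in CD11c- cells. Il12rb2, Ifnar1 and Il4ra were the others with an unadjusted p under 0.05 besides Il2rb, 4 of 23 in all, beside 4.7% of all tested genes. Il12rb2, a low transcript, was at 7.38 ± 3.68 CPM in CD11c+ and 1.24 ± 0.828 CPM in CD11c- cells, Ifnar1 at 129 ± 14.003 CPM in CD11c+ and 165 ± 13.99 CPM in CD11c- cells, and Il4ra at 52.6 ± 7.45 CPM in CD11c+ and 69.5 ± 7.501 CPM in CD11c- cells, each without overlap between subsets, as found in 3.44% of all tested genes.

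Readouts of the signals that induce the brakes were likewise without a call. Of 15 tested activation-induced genes, 0 passed and the median was 0.10, with the most abundant, Nfkbia, at 358 ± 49.6 CPM in CD11c+ and 397 ± 61.5 CPM in CD11c- cells and Tnfrsf9, the transcript of CD137, at 352 ± 112 CPM in CD11c+ and 352 ± 107 CPM in CD11c- cells. Of 14 tested STAT target genes besides the brakes, 0 passed and the median was 0.01. Tap1, a peptide transporter of antigen presentation, was at 720 ± 42.1 CPM in CD11c+ and 797.5 ± 59.9 CPM in CD11c- cells, and Ccnd3, a D cyclin, at 780 ± 86.1 CPM in CD11c+ and 655 ± 60.2 CPM in CD11c- cells. Ccnd3 and Batf had an unadjusted p under 0.05 (2 of 14, beside 4.7% of all tested genes), and Batf, an AP-1 family factor, was at 216 ± 19.4 CPM in CD11c+ and 269 ± 36.4 CPM in CD11c- cells.

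**Figure D5:**
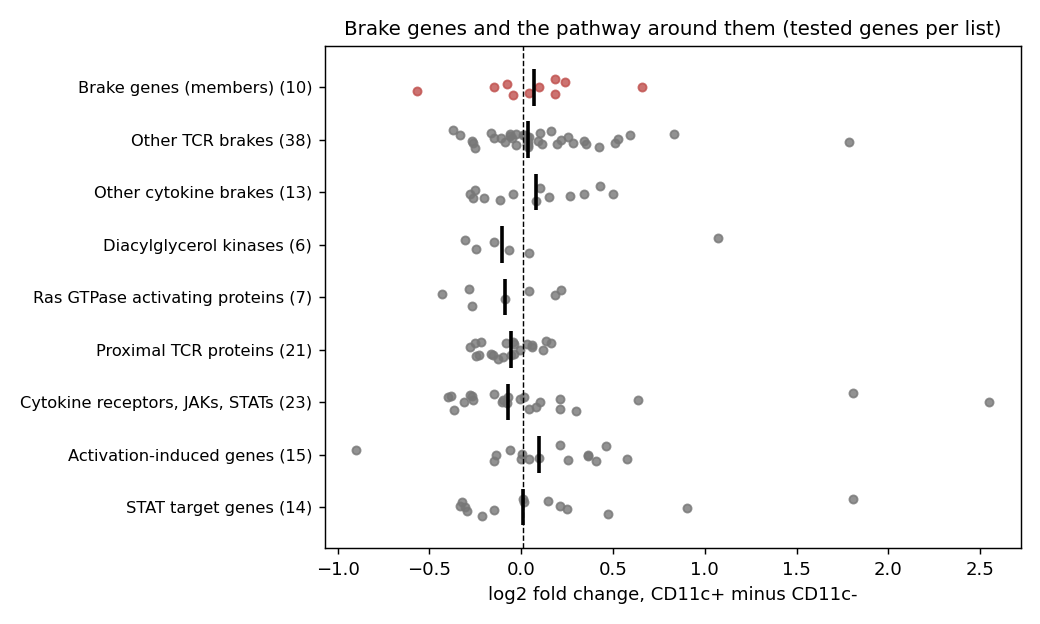
log2 fold changes (CD11c+ minus CD11c-) of the tested genes of each list, 1 point per gene, with the list's median as a bar and the median of all tested genes (0.01) as a dashed line. The brake genes (red) run from -0.57 for Socs3 to 0.66 for Cish, and no point in any list passed the threshold.

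The genes whose log2 CPM followed a brake gene most closely over the 8 libraries are given as a description, since among 10073 genes and 8 libraries high values of Pearson's r arise readily. For Cish they were Cox7c (r = 0.97) and Mki67 (r = 0.949), and Mki67 encodes the proliferation antigen Ki-67. For Socs3 a close match was Mgst2 (r = 0.956), and for Socs1 they were Brip1 (r = 0.986) and Dcaf5 (r = 0.981). Among the phosphatases and Ubash3a they were Sept9 (r = 0.96) and Slc43a3 (r = 0.926) for Ptpn6, Fnip1 (r = 0.957) and Birc3 (r = 0.956) for Ptpn22, and Eri3 (r = 0.992) and Phactr2 (r = 0.976) for Ubash3a. For Cblb they were Rabgap1l (r = 0.956) and Cdc27 (r = 0.952), for Dgka Clcn4-2 (r = 0.9748) and Wdr7 (r = 0.961), for Dgkz Zfp808 (r = 0.979) and Abcb1b (r = 0.97) and for Rasa2 Anapc13 (r = 0.972) and Pqlc1 (r = 0.972).

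Markers of other cells differed between libraries, and myeloid cells are known to express Cish, Socs3 and Ptpn6 too. The 8 monocyte, macrophage and Kupffer cell markers summed to 92.4 to 370 CPM in CD11c+ and 94.7 to 203 CPM in CD11c- libraries, highest in CD11c+ replicate 3, and the Kupffer cell genes Clec4f and Timd4 reached at most 1.4 and 0.468 CPM in any library. Of 6 neutrophil markers, 5 were in the files and summed to 2.27 to 281 CPM in CD11c+ and 7.003 to 110 CPM in CD11c- libraries, with Mpo at 0 reads in all 8 libraries. The 7 dendritic cell markers summed to 4.37 to 13.5 CPM in CD11c+ and 0 to 4.405 CPM in CD11c- libraries, and the 4 NK cell and ILC1 markers to 11.5 to 80.4 CPM in CD11c+ and 6.31 to 37.2 CPM in CD11c- libraries. On average, the largest parts of the NK cell and ILC1 sum were Tyrobp and Fcer1g, which are not restricted to these cells. Tyrobp and Fcer1g averaged 24.0 and 13.7 CPM in CD11c+ and 11.4 and 7.23 CPM in CD11c- cells. Ncr1 and Klrb1c averaged 0.523 and 3.21 CPM in CD11c+ and 0.0941 and 1.07 CPM in CD11c- cells. In two-sided exact permutation tests of the sums, where 0.0286 is the smallest possible p, p was 0.686 for the monocyte, macrophage and Kupffer cell list, 0.771 for neutrophils, 0.0571 for dendritic cells and 0.257 for NK cells and ILC1. Over the 9 lists tested, 0 passed, and the lowest p adjusted by Benjamini-Hochberg was 0.514 (exact permutation test). With 0.0286 as the smallest possible p, a single list could not reach an adjusted p under 0.05 among 9. The count of 0 therefore does not show that the subsets held equal shares of other cells. CD11c+ replicate 3, highest in all 4 lists, was also the highest for Cish, and without it the log2 fold change of Cish was 0.52 (unadjusted p = 0.0108 by edgeR) and that of Socs3 -0.62 (unadjusted p = 0.0159 by edgeR). CD11c+ replicate 1 had the second highest Cish level, 165 CPM, at 121 CPM of monocyte, macrophage and Kupffer cell markers. CD11c- replicate 3 had the second highest sums of these markers (203 CPM) and of neutrophil markers (110 CPM). Its Cish level, 86.7 CPM, was the lowest. CD11c+ replicate 2, the lowest of the 8 for both marker sums, was the lowest CD11c+ library for Cish and lay above all CD11c- libraries. These are values of single libraries. The part of these markers in the values of Cish, Socs3 and Ptpn6 was not tested further. Of the remaining lists, B cell markers summed to 9.58 to 13.6 CPM in CD11c+ and 6.16 to 14.4 CPM in CD11c- libraries, and hepatocyte markers to 0 to 6.98 CPM in CD11c+ and 1.49 to 6.58 CPM in CD11c- libraries. Endothelial and stellate cell markers summed to 17.8 to 28.1 CPM in CD11c+ and 24.7 to 38.1 CPM in CD11c- libraries, with Lyve1 and Lrat at 0 reads. Nearly all of this sum was Pecam1, which is not restricted to these cells. Pecam1 was at 22.3 ± 5.52 CPM in CD11c+ and 30.45 ± 6.02 CPM in CD11c- cells. Erythroid and platelet markers summed to 0 to 1.92 CPM in CD11c+ and 0.56 to 3.2 CPM in CD11c- libraries, with Hba-a1, Hba-a2 and Hbb-b1 at 0 reads.

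Exons of Ptpn6 (with Gm20531), Dgka (with Pmel), Dgkz (with Gm9821) and Cish (with Gm17040 and Gm17041) overlap a gene on the opposite strand in the GENCODE annotation. As no strand setting is stated for the counting, reads from those stretches cannot be told apart. No such overlap was found for Socs1, Socs3, Ptpn22, Ubash3a, Cblb or Rasa2.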

How the data were processed

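RNA of 8 libraries, 4 per subset, was amplified with a modified SMART-seq2 protocol, made into Nextera XT libraries and read as 50 bp single reads, per the labels' protocols. The build mm9, HTSeq, TopHat2 2.0.8b and bcl2fastq are named in the submitters' processing notes. The sources used here give neither annotation nor strand setting. Values as deposited are whole-number read counts for each gene symbol, which the authors left unnormalized. The 5 summary rows of each file, 82.6% to 84.5% of its sum, stayed out of library sizes and tests.

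Counts were filtered (filterByExpr), scaled with TMM and fitted with edgeR 4.0.16 (glmQLFit, glmQLFTest) in R 4.3.3 over all libraries, with CD11c+ over CD11c- as the contrast and Benjamini-Hochberg adjustment across 10073 genes. The SE is the log2 fold change over the root of F, and 95% intervals use the fit's degrees of freedom. No pair of libraries differed by read sampling alone (lowest chi-square per degree of freedom 9.43). Alternatives were RLE factors, library size only, other filters, DESeq2 1.42.0, limma 3.58.1 voom with quality weights, a replicate block, each library left out and a threshold of 0.01. Steps were tested on simulated data.

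The members, lists and marker genes were chosen with earlier results of these data known. Named genes were all members, the 2 of highest mean CPM per other list, and the 2 best-correlated genes per member (log2 of CPM plus 0.5). Of list and marker symbols, Adgre1 and Hras matched by older symbols, and Ly6g was not matched. Some genes called for by these lists and this rule are not reported here. Promoter windows are RefSeq's on GRCm38.p6, matched by symbol.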

Additional observations from a re-analysis of the deposited data

Results flagged for a closer look

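Among 50 groups of 4 library values examined, 3 held a library far from the other values of its group, and chance gives about 1 in 20. The ratio of Cish to Socs3 reads was 2.54 in CD11c- replicate 2, against 1.93 to 1.996 in the other CD11c- libraries, which lay close together. It remained below the lowest CD11c+ value of 3.81. The ratio of Socs3 to Socs1 reads was 1.66 in CD11c- replicate 1, against 1.34 to 1.35 in the other CD11c- libraries, and that library had the highest Socs3 level of the 8 at 51.4 CPM. Summed neutrophil markers were at 281 CPM in CD11c+ replicate 3, against at most 43.0 CPM in the other CD11c+ libraries.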

How the results depend on the processing

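The count of brake genes passing was 0 under every alternative run, as was that of the 127 other pathway genes. Over all genes, 5 passed, and the count was 5 with RLE factors or library size only, 12 with no filter, 8 with at least 5 CPM in 4 libraries, 32 by DESeq2, 19 by limma voom, 1 at a threshold of 0.01 and 1 to 5 without 1 library. With the replicate block it was 13. Chosen after seeing the data, edgeR with legacy=FALSE gave 11, as did leaving out CD11c+ replicates 1 and 2 and CD11c- replicate 1, the 3 libraries where fewest genes were detected. Same-numbered libraries correlated at 0.0964, 0.167, 0.119 and 0.19 in their deviations from subset means, each best with its own number, a hint from the data and not the design. Of 170 log2 fold changes of brake genes under alternatives, 164 kept their sign. Cish stayed between 0.52 and 0.78 and Socs3 between -0.63 and -0.50, each with an unadjusted p under 0.05 in all 17 alternatives by the tool of that alternative, and adjusted p of 0.0754 or more. Leaving out 1 library at a time, the log2 fold change ran from -0.17 to 0.033 for Ptpn22 (positive without CD11c+ replicate 3), from -0.17 to 0.024 for Cblb (positive without CD11c+ replicate 1), from -0.083 to 0.12 for Dgkz (negative without CD11c+ replicate 3, and at -0.053 without CD11c- replicate 2) and from -0.030 to 0.42 for Rasa2 (negative without CD11c+ replicate 1). That of Ubash3a was -0.036 without those 3 libraries. The cause of these reversals was not tested. Counting error at the lowest count was largest for Rasa2 (7.91%), Socs3 (7.86%) and Socs1 (7.74%). The coefficient of variation of Rasa2 between CD11c+ libraries was 41.6%.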

Other observations

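The ratio of Dgka to Dgkz reads varied less between CD11c- libraries than between CD11c+ libraries. Its mean was 4.81 (SD 1.23) in CD11c+ and 5.31 (SD 0.245) in CD11c- libraries. Dgka had 3.49 to 6.39 times the reads of Dgkz in CD11c+ libraries and 5.03 to 5.5997 times in CD11c- libraries, with CD11c+ replicate 3 the lowest and CD11c+ replicate 1 the highest of the 8. This ratio was chosen after its values were seen and was not tested.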
